A study of Homo sapiens with 8 samples.

Results

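The nuclear NDUF genes encode most of the subunits of mitochondrial complex I and 8 of the factors that assemble it. Complex I is the NADH:ubiquinone oxidoreductase that feeds electrons from NADH into the respiratory chain and pumps protons across the inner mitochondrial membrane. It is built from an N module that oxidizes NADH, a Q module that reduces ubiquinone and a membrane arm whose core is encoded in mitochondrial DNA. The NDUFAF proteins are not part of the finished enzyme and act while its modules are made and joined. Members were chosen by symbol alone, as gene names of the letters NDUF followed by A, AB, AF, B, C, S or V and a number. This rule found 46 of 60282 genes in the table, of which 38 carry subunit names and 8 are the assembly factors NDUFAF1 to NDUFAF8. One of the 38, NDUFA4, keeps a complex I name although its protein is now assigned to complex IV, and it was described apart from the modules. The rule used no expression value. All 46 genes passed the filter on low counts.

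RNA was measured in SK-UT-1, a human line established from a leiomyosarcoma of the uterus, a malignant smooth muscle tumor. Cells received TP-472 at 5 µM for 48 h or vehicle (DMSO), with 4 libraries in each group. TP-472 is a small-molecule inhibitor of BRD9, a bromodomain protein of a chromatin remodeling complex. Only this 1 cell line was treated. The study's methods speak of biological replicates for its experiments in general, and the labels do not say whether these libraries came from separate cultures, so p-values measure the spread between these samples. Total counts ran from 32574716 to 38545695 per library, and the NDUF genes held between 0.190% and 0.298% of them. Of the smooth muscle markers, ACTA2 lay between 105 and 177 CPM (library-scaled counts) and CALD1 between 178 and 211 CPM, while MYH11, MYOCD and ACTG2 stayed under 0.3 CPM in every library. The mesenchymal marker VIM lay between 1850 and 3546 CPM, and the blood cell markers PTPRC, CD3E and LYZ and all 4 endothelial markers (PECAM1, VWF, CDH5 and KDR) stayed under 0.3 CPM. The blood cell marker CD68, a lysosomal protein of macrophages that other cells also make, lay between 6.68 and 12.2 CPM. The 5 epithelial markers (EPCAM, CDH1, KRT8, KRT18 and KRT19) together came to between 17.5 and 26.8 CPM per library.

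Vehicle replicate 3 stood apart from the other vehicle libraries. Its median Spearman correlation with its own group was 0.914 over 14073 genes, against 0.988 to 0.989 for the other vehicle libraries and 0.993 to 0.997 for the TP-472 libraries. Its distance from the other vehicle libraries followed the GC content of the genes (Spearman's rho 0.77 across genes, which are not independent replicates and share this library). For the NDUF genes this was visible directly: vehicle replicate 3 was the lowest vehicle library for 31 of 38 subunits and 6 of 8 assembly factors, against 43.7% of all genes tested. It was the highest vehicle library for 6 subunits and 1 assembly factor, against 43.2%. Most results are therefore given with all 8 libraries and without this library. Whether the RNA, the library or the culture differed was not tested. The distance of each TP-472 library from the others of its group had a rho with GC content of 0.24, 0.30, 0.02 and −0.34. For vehicle replicates 1, 2 and 4 this rho was −0.62, −0.62 and −0.59, against groups that include vehicle replicate 3.

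The promoters of the NDUF genes were read from RefSeq on GRCh38.p14, as windows of 250 bases before and 50 bases after the start, and 39 of 46 genes had an entry. NDUFS5, NDUFAF6, NDUFB5, NDUFC2, NDUFB9 and NDUFA4 were among those with none. Stretches free of annotated exons are shown for 4 genes, which do not cover the lowest fold changes described below. NDUFAF4 had the highest fold change of all NDUF genes, NDUFB7 carries the same ETS letters and did not pass the test, NDUFS6 had the highest fold change among the subunits in all 8 libraries, and NDUFAF5 is an assembly factor with an E-box. They lie on the minus strand at chr6:96897892-96898141 and chr19:14572067-14572316, and on the plus strand at chr5:1801157-1801333 and chr20:13784887-13784949. Capitals mark a match on either strand to the ETS letters CCGGAAG, the Sp1 letters GGGCGG or the E-box CACGTG.
NDUFAF4: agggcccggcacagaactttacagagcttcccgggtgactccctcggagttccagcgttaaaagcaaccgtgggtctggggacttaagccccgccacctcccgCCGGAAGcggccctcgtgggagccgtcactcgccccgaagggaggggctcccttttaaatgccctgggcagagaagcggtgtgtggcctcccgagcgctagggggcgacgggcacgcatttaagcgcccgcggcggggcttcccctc
NDUFB7: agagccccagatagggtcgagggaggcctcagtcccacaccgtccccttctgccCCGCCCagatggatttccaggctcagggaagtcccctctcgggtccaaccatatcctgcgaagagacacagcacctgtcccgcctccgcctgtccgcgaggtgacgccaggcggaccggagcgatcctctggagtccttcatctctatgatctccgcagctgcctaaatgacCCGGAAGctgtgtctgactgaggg
NDUFS6: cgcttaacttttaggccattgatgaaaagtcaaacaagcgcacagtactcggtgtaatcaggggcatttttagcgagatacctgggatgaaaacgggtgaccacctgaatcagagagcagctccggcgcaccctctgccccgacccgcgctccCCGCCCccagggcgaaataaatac
NDUFAF5: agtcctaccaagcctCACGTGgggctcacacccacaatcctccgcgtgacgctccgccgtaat

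Over the whole windows and both strands, the NRF1 letters (GCGCA, then any base, then GCGC) were found in 7 of 39 NDUF promoters (17.9%) and in 6.28% of all 27305 promoters. The YY1 letters AAGATGGCG were found in 5 of 39 (12.8%) against 1.85%. The ETS letters were found in 6 of 39 (15.4%) against 10.7%, the Sp1 letters in 22 of 39 (56.4%) against 44.6% and the E-box in 4 of 39 (10.3%) against 7.43%. The median GC content of the windows was 60.7% against 58.3% of all promoters, with a median of 23 CpG against 14. These are matches of letters in these windows and not sites of binding. Of the 5 assembly factors that rose, NDUFAF4 held the ETS letters, NDUFAF2 the Sp1 letters, NDUFAF5 the NRF1 letters and the E-box, and NDUFAF8 none of the 5 motifs. The ETS letters were also in the promoters of NDUFA1, NDUFA13, NDUFB7, NDUFS1 and NDUFS3. None of these passed the test in all 8 libraries, where 17.2% of all genes tested passed as higher and 19.1% as lower. Without vehicle replicate 3, NDUFS3 alone of these passed as higher (edgeR adjusted p = 0.0127), against 28.6% of all genes tested. Whether any of these letters bear on the changes was not tested.

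The comparison of TP-472 with vehicle asked how inhibition of BRD9 changed the transcriptome. Fold changes are TP-472 over vehicle on the log2 scale, tested with edgeR's quasi-likelihood test and Benjamini-Hochberg adjustment over the 14073 genes that exceeded 1 CPM in 4 or more libraries. A gene passed at an adjusted p under 0.05, and levels are TMM-scaled CPM. TMM is a scaling for library size and composition. Among the 8 assembly factors, 5 rose (NDUFAF2, NDUFAF4, NDUFAF5, NDUFAF6 and NDUFAF8) and 0 fell, while 17.2% of all genes tested passed as higher and 19.1% as lower. Among the 38 subunits, 4 rose (NDUFS6, NDUFA8, NDUFC2 and NDUFB10) and 0 fell. Median log2 fold changes were 0.62 in the assembly factors, 0.30 in the subunits and −0.03 in all genes tested. The difference between the assembly factors and the subunits was not tested. In bulk RNA a change in the share of cells and a change of RNA per cell cannot be told apart.

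Markers of cell identity moved in the same libraries. Of 8 tested smooth muscle markers, 5 fell (ACTA2, DES, TAGLN, LMOD1 and MYLK) and 0 rose, against 19.1% lower and 17.2% higher among all genes tested. Their median log2 fold change was −0.67. The summed level of the 11 listed was 453 to 543 CPM in the vehicle libraries and 376 to 385 CPM in the TP-472 libraries. Of 5 mesenchymal markers, COL1A1, COL1A2 and PDGFRB fell and FN1 rose, against the same shares. Their summed level was 2680 to 4272 CPM in the vehicle and 1950 to 2095 CPM in the TP-472 libraries. Of 3 tested epithelial markers, 1 rose and 1 fell, with a median log2 fold change of 0.52. CD68 rose by 0.47 (edgeR adjusted p = 0.0307). Without vehicle replicate 3 the smooth muscle markers again had 5 lower and a median of −0.62, and 4 mesenchymal markers were lower with VIM among them. The shares of all genes tested were then 28.4% lower and 28.6% higher. Of the epithelial markers 1 was again higher and 1 lower, with a median of 0.56, and CD68 stood at 0.48. The part of these markers in the NDUF results was not tested.

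Without vehicle replicate 3, the same 5 assembly factors rose and 12 subunits rose, with 0 lower in both lists. The background was then 28.6% higher and 28.4% lower. The medians were 0.49 for the assembly factors, 0.15 for the subunits and 0.00 for all genes tested. The summed level of the subunits was 2074, 2647, 1689 and 2591 CPM in vehicle replicates 1 to 4. It was 2624, 2881, 2896 and 2397 CPM in TP-472 replicates 1 to 4. Vehicle replicate 1 was thus also low, and TP-472 replicate 4 lay below vehicle replicates 2 and 4. The summed assembly factors had 128, 143, 104 and 143 CPM in the vehicle and 183, 197, 202 and 177 CPM in the TP-472 libraries. With a limit of 1.5-fold added, 4 assembly factors and 2 subunits were differentially expressed in all 8 libraries, against 12.0% of all genes tested as higher. Leaving out vehicle replicate 3 gave 3 and 1, again against 12.0%. None was differentially expressed as lower in either fit, against 14.9% and 13.4% of all genes tested. Above 0 were 30 of 38 subunits and all 8 assembly factors in all 8 libraries, against 48.2% of all genes tested. The share of subunits that rose (4 of 38) was below the share of all genes in all 8 libraries and close to it without vehicle replicate 3 (12 of 38). All 4 TP-472 libraries lay above every vehicle library for 6 of 8 assembly factors and 11 of 38 subunits, against 23.8% of all genes tested. They lay below every vehicle library for 1 subunit, NDUFS8, against 21.6%.

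**Figure D1:**
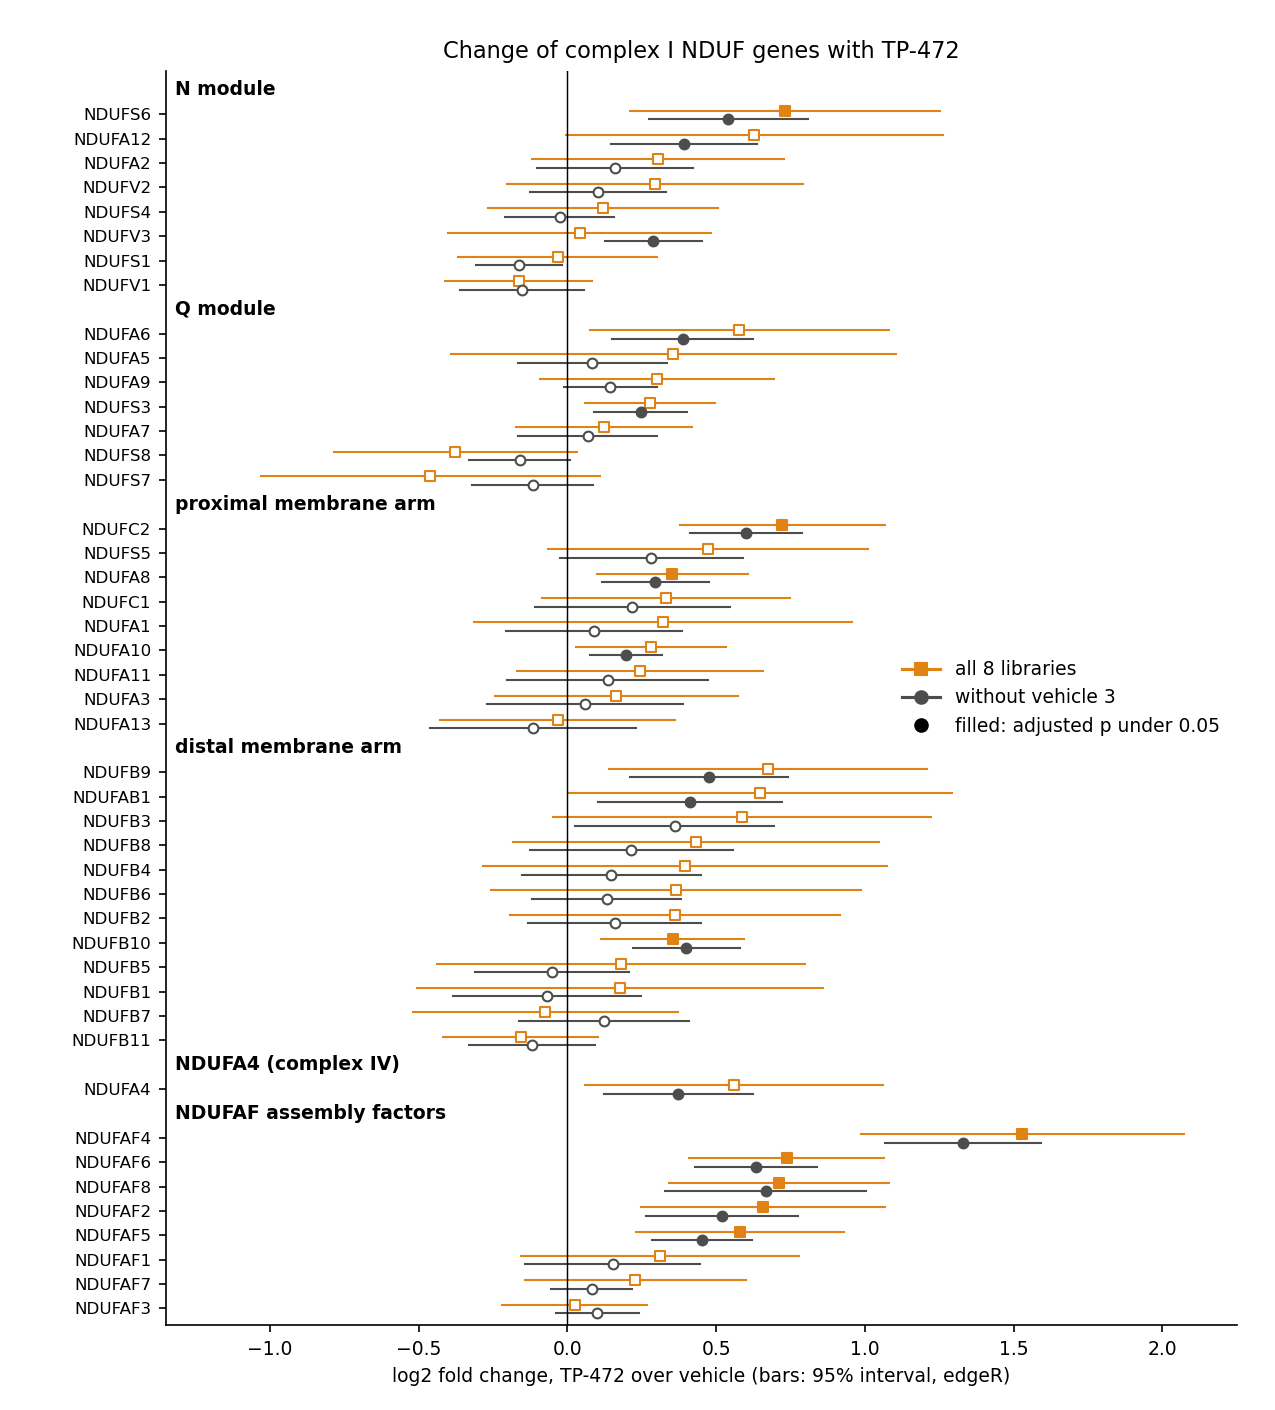
Log2 fold change of 45 NDUF genes (x axis) by module, with 95% intervals, for all 8 libraries (squares) and without vehicle replicate 3 (circles), filled where the adjusted p of edgeR's quasi-likelihood test was under 0.05. The intervals narrow without that library, and NDUFAF4 lies farthest to the right, at 1.53 and 1.33.

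NDUFAF4, a factor of the assembly of the Q module, had the highest fold change of all NDUF genes. Its level was 9.48, 12.1, 5.67 and 13.7 CPM in vehicle replicates 1 to 4 and 29.8, 30.6, 30.0 and 27.7 CPM in the TP-472 libraries. Every treated library was more than 2 times as high as the highest vehicle library. The log2 fold change was 1.53 ± 0.24 (SE, n = 4 per group, edgeR quasi-likelihood adjusted p = 0.00192), a 2.89-fold rise, and 1.33 ± 0.12 or 2.51-fold without vehicle replicate 3. It passed in all 25 alternative analyses, with adjusted p-values up to 0.00912. The gene lies on the minus strand at chr6:96889313-96897881 (GRCh38, GENCODE release 29). NDUFAF3, the partner of NDUFAF4 in the assembly of the Q module, had 24.7, 25.9, 31.2 and 26.4 CPM in the vehicle and 27.1, 27.0, 28.7 and 27.5 CPM in the TP-472 libraries. The groups overlapped, and its fold change was 0.03 with a 95% interval of −0.22 to 0.27 (adjusted p = 0.868). It was 0.10 (−0.04 to 0.24) without vehicle replicate 3.

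NDUFAF6, an assembly factor that acts early and is mutated in some cases of Leigh syndrome, had 11.0, 11.1, 7.76 and 9.92 CPM in the vehicle libraries and 16.4, 16.3, 18.4 and 15.2 CPM in the TP-472 libraries. The groups did not overlap. It rose by 0.74 ± 0.15 (SE, n = 4 per group, edgeR adjusted p = 0.00531) and by 0.63 without vehicle replicate 3. NDUFAF8, which stabilizes NDUFAF5, had 8.48, 12.2, 9.70 and 12.4 CPM in the vehicle libraries and 16.4, 18.9, 19.9 and 14.95 CPM in the TP-472 libraries, again without overlap. Here vehicle replicate 3 lay inside the range of its group. NDUFAF8 rose by 0.71 ± 0.16 (edgeR adjusted p = 0.0105) and by 0.67 without that library. Both genes passed in all 25 alternatives, with adjusted p-values up to 0.0287 for NDUFAF6 and 0.0391 for NDUFAF8.

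NDUFAF5, which hydroxylates an arginine of the core subunit NDUFS7, had 17.1, 18.7, 12.2 and 19.6 CPM in the vehicle libraries and 24.9, 25.9, 26.4 and 24.02 CPM in the TP-472 libraries. NDUFAF2, which acts late, when the N module is added, had 21.3, 26.4, 15.1 and 24.2 CPM in the vehicle libraries and 30.6, 38.1, 38.4 and 30.4 CPM in the TP-472 libraries. In both genes the lowest treated library was above the highest vehicle library. NDUFAF5 rose by 0.58 ± 0.16 (SE, n = 4 per group, edgeR adjusted p = 0.0192) and NDUFAF2 by 0.66 ± 0.18 (edgeR adjusted p = 0.0218). The values were 0.45 and 0.52 without vehicle replicate 3. Across the 25 alternatives NDUFAF5 passed in 21, with adjusted p-values up to 0.0583, and NDUFAF2 in 22, with adjusted p-values up to 0.0688.

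The other assembly factors did not pass. NDUFAF1, a factor of the membrane arm, had 8.15, 8.85, 5.27 and 9.89 CPM in the vehicle libraries and 10.1, 10.8, 11.0 and 7.90 CPM in the TP-472 libraries. TP-472 replicate 4 fell below 3 of the 4 vehicle libraries, and the fold change was 0.31 with a 95% interval of −0.16 to 0.78 (edgeR adjusted p = 0.26). NDUFAF7, an arginine methyltransferase of the mitochondrion, had 27.8, 28.1, 16.8 and 26.4 CPM in the vehicle libraries and 28.1, 29.1, 29.3 and 29.5 CPM in the TP-472 libraries. All treated libraries were above every vehicle library, but vehicle replicates 1, 2 and 4 were less than 2 CPM below the lowest of them. The fold change of NDUFAF7 was 0.23 with an interval of −0.14 to 0.60 (edgeR adjusted p = 0.296), and 0.08 (−0.05 to 0.22) without vehicle replicate 3. NDUFAF5 and NDUFAF7, both of them enzymes, stood at 0.58 and 0.23, and the difference between them was not tested.

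**Figure D2:**
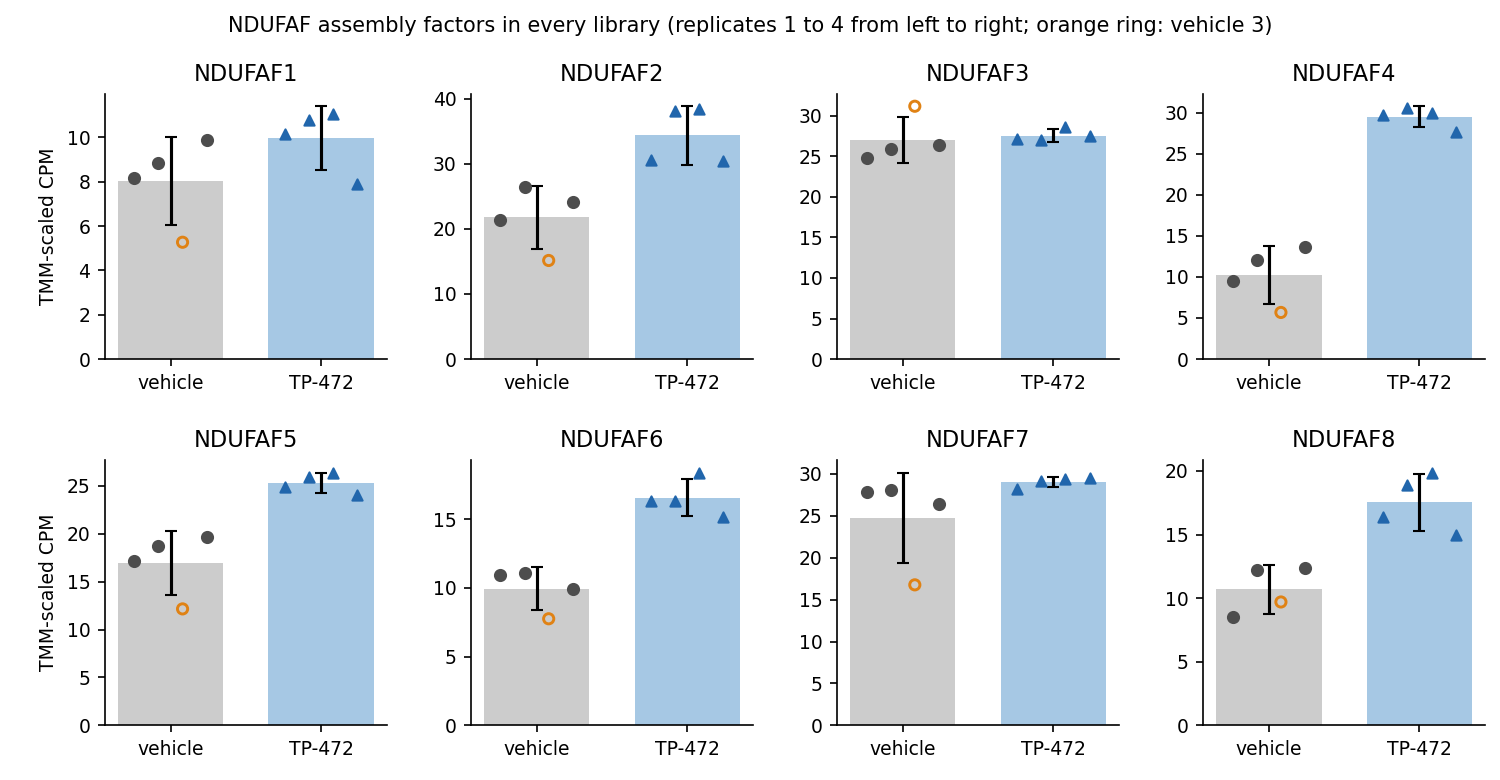
TMM-scaled CPM (y axes, from 0) of the 8 assembly factors, with bars for the mean of each group, error bars for the SD (n = 4) and a point for each library. The orange ring is vehicle replicate 3. For NDUFAF4 all treated libraries lie between 27.7 and 30.6 CPM and all vehicle libraries at 13.7 CPM or below.

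Among the subunits, the 7 core catalytic subunits of the nuclear genome carry out the transfer of electrons from NADH to ubiquinone. None of the 7 passed in all 8 libraries, and their log2 fold changes ran from −0.46 to 0.29, with 5 below 0. The other 30 complex I subunits, the accessory subunits, had a median of 0.34, and 4 of them (13.3%) rose, against 17.2% of all genes tested. At the unadjusted level, 1 of the 7 core subunits (NDUFS3) had a 95% interval above 0. The medians of the core and the accessory subunits were −0.15 and 0.16 without vehicle replicate 3. In that fit 1 core and 10 accessory subunits (33.3%) rose, against 28.6% of all genes tested. With the GC correction described below, the core and accessory medians were 0.085 and 0.33. Leaving out vehicle replicate 3 as well gave −0.04 and 0.15. The difference between core and accessory subunits was not tested.

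In the N module, NDUFV1, which binds the flavin and NADH, had 124, 142, 140 and 143 CPM in the vehicle libraries and 124, 134, 129 and 104 CPM in the TP-472 libraries. The groups overlapped, and the fold change was −0.16 with a 95% interval of −0.41 to 0.08 (edgeR adjusted p = 0.261), the lowest of its module. NDUFV2, an iron-sulfur subunit that joins NDUFV1, had 73.2, 91.5, 42.6 and 87.8 CPM in the vehicle libraries and 85.1, 93.0, 103 and 80.7 CPM in the TP-472 libraries. NDUFV2 stood at 0.29 (−0.20 to 0.79, edgeR adjusted p = 0.315) and at 0.10 without vehicle replicate 3. NDUFS1, the largest iron-sulfur subunit, had 166, 188, 119 and 190 CPM in the vehicle libraries and 161, 160, 168 and 159 CPM in the TP-472 libraries. The treated libraries of NDUFS1 were close to each other and lay inside the vehicle range. Its fold change was −0.03 (−0.37 to 0.30, edgeR adjusted p = 0.877), and −0.16 (−0.31 to −0.02) without vehicle replicate 3. The adjusted p-value of NDUFS1 ran from 0.00119 to 0.97 over the 25 alternatives, of which 5 passed.

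The highest of the N module, and of all subunits in all 8 libraries, was NDUFS6, a zinc-binding accessory subunit that is put in place late in assembly. It had 33.5, 45.9, 20.8 and 44.9 CPM in the vehicle libraries and 60.9, 61.7, 66.2 and 52.2 CPM in the TP-472 libraries. All treated libraries lay above all vehicle libraries. NDUFS6 rose by 0.73 ± 0.23 (SE, n = 4 per group, edgeR adjusted p = 0.0353), and by 0.54 ± 0.12 without vehicle replicate 3, where it was no longer above 1.5-fold (1.45-fold) and NDUFC2, at 0.60, was the higher. It passed in 18 of 25 alternatives, with adjusted p-values up to 0.0925. The remaining N module genes NDUFA12, NDUFA2, NDUFS4 and NDUFV3 had fold changes of 0.63, 0.30, 0.12 and 0.04 and did not pass. NDUFV3 differed from the others in vehicle replicate 3, which had 71.3 CPM against 37.4, 42.9 and 41.9 CPM in the other vehicle libraries. Without that library, NDUFV3 stood at 0.29 and NDUFA12 at 0.39, and both passed with edgeR adjusted p-values of 0.00736 and 0.0125. Over all alternatives these ran from 0.000893 to 0.995 for NDUFV3 and from 0.00317 to 0.208 for NDUFA12.

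In the Q module none of 8 genes passed in all 8 libraries. NDUFS7 and NDUFS8, which hold the iron-sulfur clusters next to ubiquinone, were the lowest. NDUFS7 had 28.2, 29.5, 61.6 and 31.0 CPM in the vehicle libraries and 28.6, 29.3, 28.2 and 23.1 CPM in the TP-472 libraries. NDUFS8 had 52.6, 54.4, 89.2 and 55.3 CPM in the vehicle libraries and 50.3, 51.7, 49.4 and 42.3 CPM in the TP-472 libraries. In both, vehicle replicate 3 was far above the other vehicle libraries, which were close to the treated ones. The fold changes were −0.46 (95% interval −1.03 to 0.11, edgeR adjusted p = 0.175) and −0.38 (−0.78 to 0.03, edgeR adjusted p = 0.129). They were −0.12 (−0.32 to 0.09) and −0.16 (−0.33 to 0.01) without vehicle replicate 3.

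NDUFS3, a core subunit of this module, had 46.7, 52.4, 45.9 and 51.1 CPM in the vehicle libraries and 58.0, 62.7, 61.7 and 55.3 CPM in the TP-472 libraries, without overlap. Its fold change was 0.28 ± 0.10 (SE, n = 4 per group, edgeR adjusted p = 0.0505), and 0.25 (adjusted p = 0.0127) without vehicle replicate 3. The adjusted p ran from 0.000923 to 0.212 over its 25 alternatives, of which 11 passed. NDUFS3 shares exons with PTPMT1 on the same strand, whose counts came to 81.7% of those of NDUFS3, so its level is uncertain. NDUFA6, an accessory subunit on the matrix side, was the highest of the module. It had 68.8, 94.5, 42.0 and 86.2 CPM in the vehicle libraries and 107, 113, 116 and 99.3 CPM in the TP-472 libraries, also without overlap. NDUFA6 stood at 0.58 (0.07 to 1.08, edgeR adjusted p = 0.0698), and at 0.39 without vehicle replicate 3, with adjusted p-values from 0.000527 to 0.151 over its alternatives. NDUFA5, NDUFA9 and NDUFA7 of this module lay between 0.12 and 0.36 and did not pass.

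**Figure D3:**
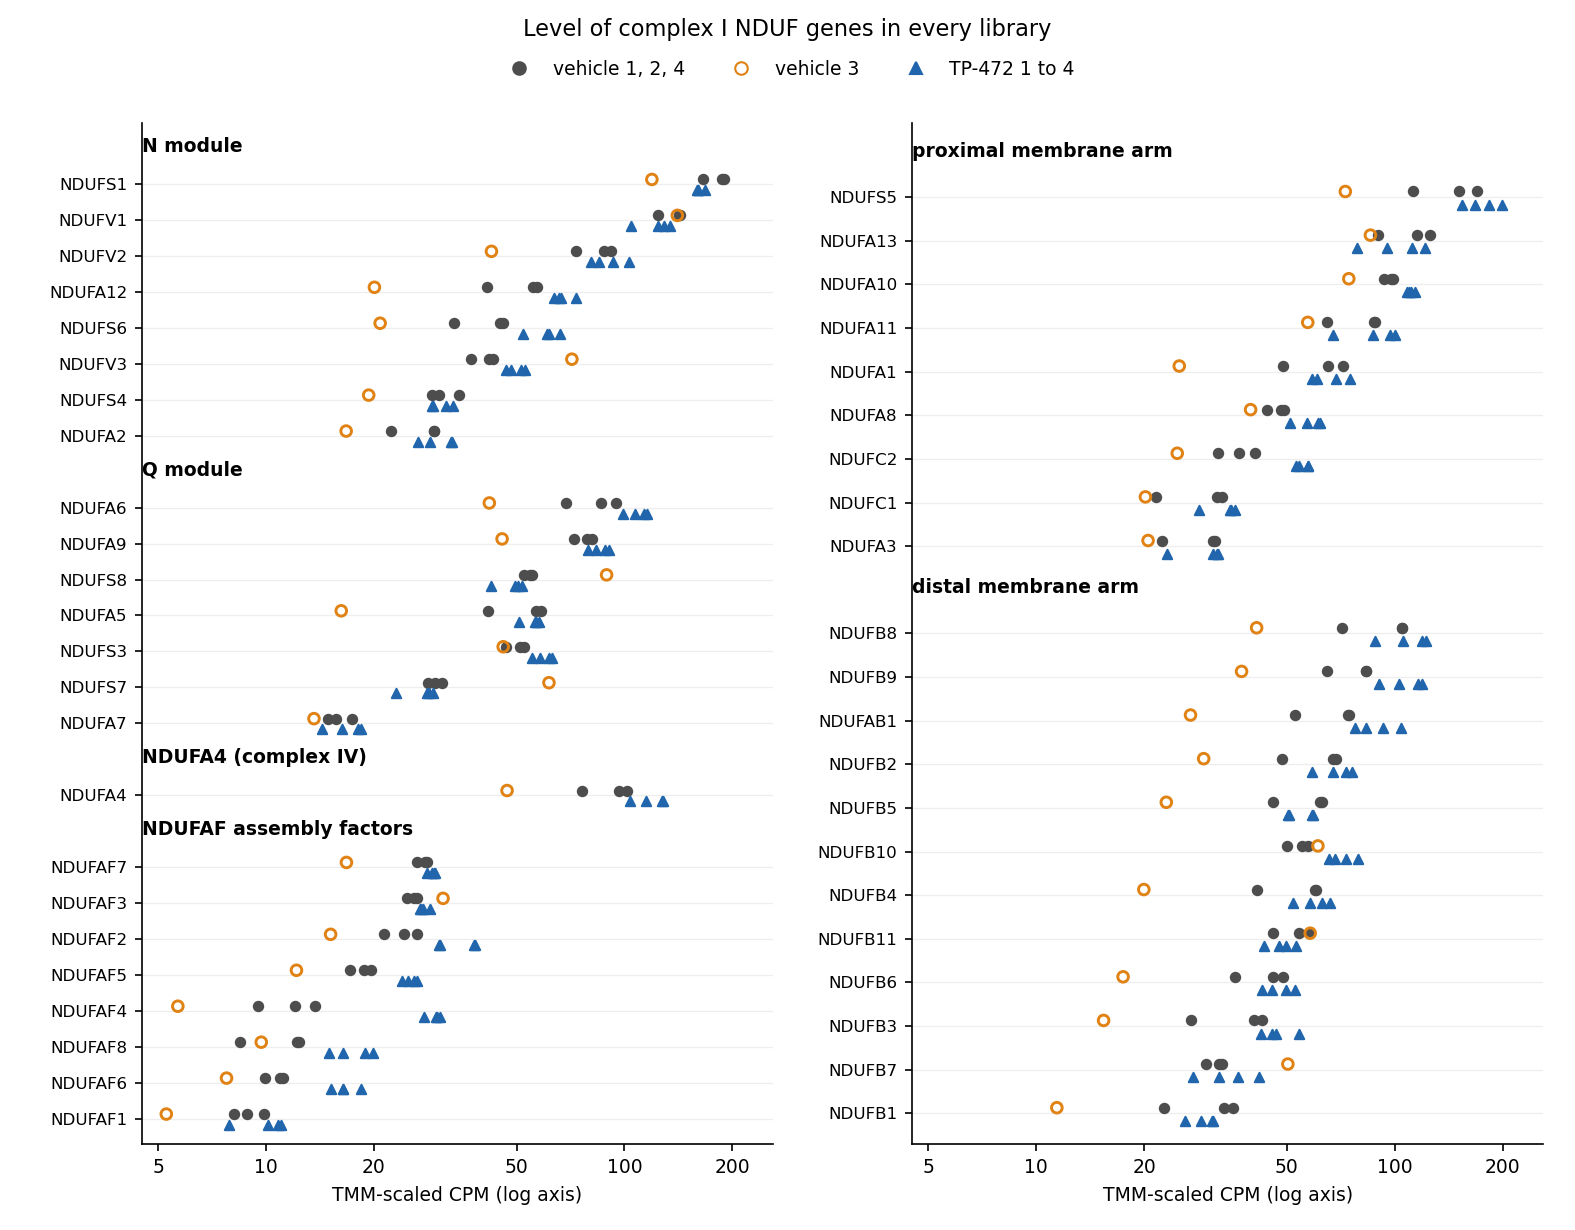
TMM-scaled CPM (log axis) of 45 NDUF genes in each library, sorted within a group by the mean of vehicle replicates 1, 2 and 4. Filled circles are these vehicle libraries, open orange circles vehicle replicate 3 and triangles the TP-472 libraries. The open circle is the lowest vehicle library for 36 of these genes and the highest for 7, among them NDUFS7 and NDUFS8.

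In the proximal membrane arm, the stretch of the membrane domain next to the Q module, NDUFC2 and NDUFA8 rose and none of the 9 genes fell. NDUFC2, an accessory subunit of the inner membrane, had 32.1, 40.8, 24.7 and 36.8 CPM in the vehicle libraries and 52.9, 57.3, 57.4 and 54.2 CPM in the TP-472 libraries. The lowest treated library was above the highest vehicle library by over 10 CPM. NDUFC2 rose by 0.72 ± 0.15 (SE, n = 4 per group, edgeR adjusted p = 0.00717), a 1.65-fold change, and by 0.60 or 1.52-fold without vehicle replicate 3. It was the subunit that passed in all 25 alternatives, with adjusted p-values up to 0.027. The read-through gene NDUFC2-KCTD14 shares its exons and held 2.69% as many counts. NDUFA13, also known as GRIM-19, was the lowest of this arm. It had 89.8, 125, 85.5 and 115 CPM in the vehicle libraries and 94.9, 121, 112 and 78.6 CPM in the TP-472 libraries, with full overlap. Its fold change was −0.03 (95% interval −0.43 to 0.36, edgeR adjusted p = 0.895).

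NDUFA8 and NDUFB10, named here after their values were seen because they complete the 4 subunits that rose, both face the intermembrane space. NDUFA8 had 43.9, 49.1, 39.6 and 48.0 CPM in the vehicle libraries and 56.8, 61.0, 61.9 and 51.1 CPM in the TP-472 libraries. NDUFB10, of the distal arm, had 50.1, 55.1, 61.0 and 57.3 CPM in the vehicle libraries and 68.0, 73.3, 78.8 and 65.5 CPM in the TP-472 libraries. Neither gene showed overlap between the groups, and in NDUFB10 vehicle replicate 3 was the highest of its group. NDUFA8 rose by 0.35 ± 0.11 (SE, n = 4 per group, edgeR adjusted p = 0.0368) and NDUFB10 by 0.35 ± 0.11 (edgeR adjusted p = 0.0299). They rose by 0.30 and 0.40 without vehicle replicate 3. Each passed in 17 of 25 alternatives, with adjusted p-values up to 0.134 and 0.0995. The other proximal genes, NDUFS5, NDUFC1, NDUFA1, NDUFA10, NDUFA11 and NDUFA3, had fold changes between 0.16 and 0.47 and did not pass.

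In the distal membrane arm, at the far end of the proton-pumping domain, NDUFB10 alone of 12 genes passed in all 8 libraries. NDUFB9, an accessory subunit on the matrix side, had the highest fold change there. It had 64.9, 83.4, 37.4 and 83.1 CPM in the vehicle libraries and 103, 119, 116 and 90.6 CPM in the TP-472 libraries. The groups did not overlap, yet the spread of the vehicle libraries was wide, and NDUFB9 stood at 0.67 ± 0.24 (SE, n = 4 per group, edgeR adjusted p = 0.0517). It was at 0.48 and passed without vehicle replicate 3, with adjusted p-values from 0.000188 to 0.124 over its 25 alternatives. NDUFB11, an X-linked subunit of the inner membrane, was the lowest. It had 45.8, 54.1, 58.1 and 57.6 CPM in the vehicle libraries and 47.5, 52.9, 49.9 and 43.2 CPM in the TP-472 libraries. The groups overlapped, with a fold change of −0.16 (95% interval −0.42 to 0.10, edgeR adjusted p = 0.308).

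NDUFAB1, the mitochondrial acyl carrier protein, sits in this arm and also in the Q module. It had 52.7, 74.2, 26.9 and 74.5 CPM in the vehicle libraries and 83.3, 92.5, 104 and 77.6 CPM in the TP-472 libraries. The groups did not overlap, and its fold change was 0.65 (95% interval 0.0014 to 1.29, edgeR adjusted p = 0.104), or 0.41 without vehicle replicate 3. NDUFB7, whose promoter is shown above beside that of NDUFAF4, had 29.6, 33.0, 50.3 and 32.3 CPM in the vehicle libraries and 32.3, 41.7, 36.6 and 27.4 CPM in the TP-472 libraries. Its fold change was −0.07 (−0.52 to 0.37, edgeR adjusted p = 0.785). It was 0.12 (−0.16 to 0.41, edgeR adjusted p = 0.43) without vehicle replicate 3. The other 7 distal genes lay between 0.18 and 0.59 and did not pass. NDUFA4, the complex IV subunit, had 76.03, 102, 47.0 and 96.7 CPM in the vehicle libraries and 115, 128, 127 and 104 CPM in the TP-472 libraries. The groups did not overlap, and NDUFA4 stood at 0.56 (0.06 to 1.06, edgeR adjusted p = 0.0756) and at 0.37 without vehicle replicate 3. Over its 25 alternatives the adjusted p ran from 0.00095 to 0.163, and 12 passed.

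The levels of the genes differed within the complex although its subunits are present in equal numbers, apart from NDUFAB1. Per kilobase of transcript, the mean of vehicle replicates 1, 2 and 4 was highest for NDUFS5 (265 CPM per kb), NDUFB8 (137 CPM per kb) and NDUFA13 (133 CPM per kb). It was lowest for the assembly factors NDUFAF4 (4.9 CPM per kb), NDUFAF5 (5.7 CPM per kb) and NDUFAF6 (5.7 CPM per kb). Lengths are medians over annotated transcripts, so the order between close genes is not firm. Among the subunits the lowest were NDUFV3 and NDUFA9, with 13.03 and 17.2 CPM per kb and long annotated transcripts. Reads of NDUFC1, NDUFB2, NDUFA7 and NDUFA9 can also be shared with same-strand genes that overlap their exons, whose counts came to 39.3%, 24.2%, 18.3% and 15.4% of theirs.

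GC content went with the behavior of vehicle replicate 3 in these genes. In the 14 NDUF genes with a GC content under 45%, vehicle replicate 3 was below the mean of the other vehicle libraries in every gene, at a median ratio of 0.494. In the 13 genes over 55%, the median ratio was 1.03 and 7 genes were above that mean. The 19 genes between these limits had a median ratio of 0.589. Across the 46 genes, Spearman's rho of GC content was 0.67 with the deviation of vehicle replicate 3 and −0.45 with the log2 fold change in all 8 libraries. It was −0.23 with the fold change without that library. These correlations are across genes measured in the same libraries and are descriptions. The subunits had a median GC content of 50.7%, the assembly factors 45.1% and all genes tested 49.4%.

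**Figure D4:**
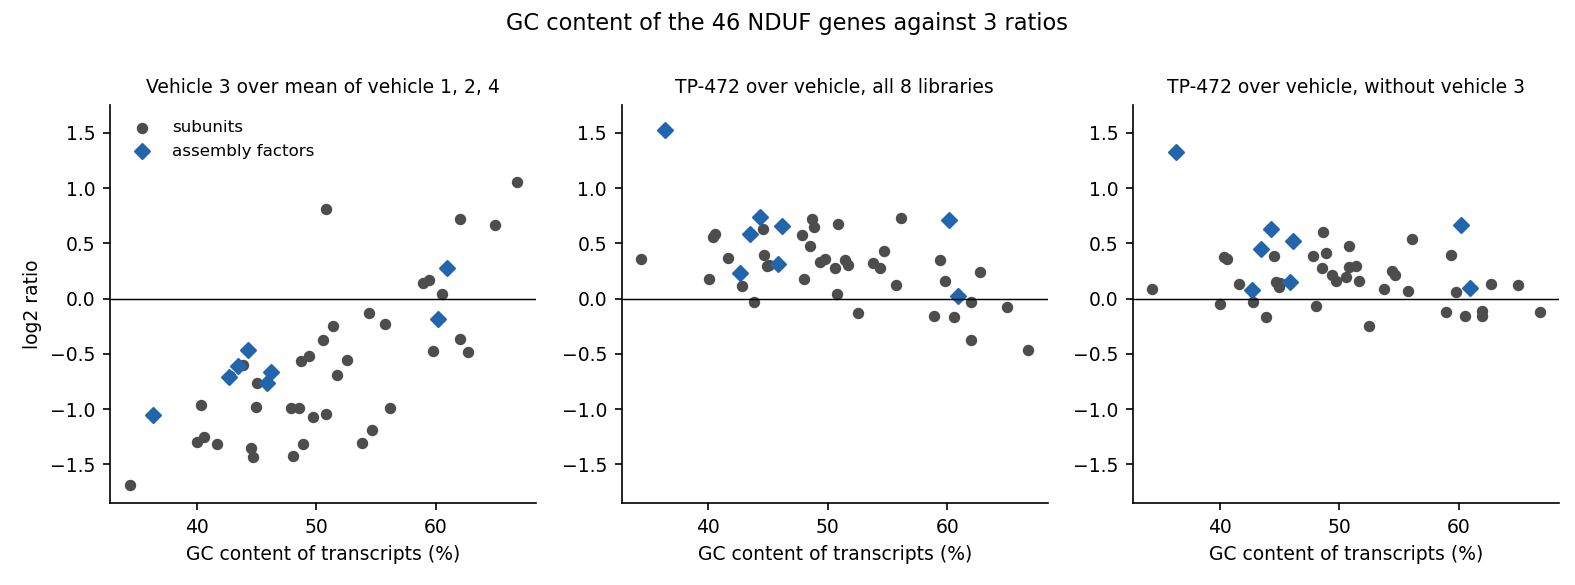
GC content of the transcripts (x axes) of the 46 NDUF genes against the log2 ratio of vehicle replicate 3 to the mean of the other vehicle libraries (left), and the log2 fold change of TP-472 over vehicle with (middle) and without (right) that library. Circles are subunits and diamonds assembly factors. Genes under 45% GC all lie below 0 on the left.

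After a correction of each library for GC content, 5 assembly factors and 6 subunits passed as higher and 0 as lower, against 25.3% and 26.9% of all genes tested. With this correction and without vehicle replicate 3, 6 assembly factors and 10 subunits passed as higher, and NDUFS1 passed as lower at −0.22, against 28.4% and 29.3%. The medians of the subunits were 0.29 and 0.13 in these fits, and those of the assembly factors 0.49 and 0.43. Of the subunits below 0 in all 8 libraries, NDUFS7, NDUFS8, NDUFV1, NDUFA13, NDUFB7 and NDUFB11 turned above 0 under the correction alone, while NDUFS1 stayed below it.

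The rest of the respiratory chain was set beside the NDUF genes by lists of its other parts. Of 44 genes of complexes II to IV and ATP synthase, with assembly factors of complex II among them, 5 rose and 1 fell. Their median log2 fold change was 0.42, against 0.30 for the NDUF subunits, a list that leaves the NDUFAF factors out. Without vehicle replicate 3, 17 rose and 2 fell, with a median of 0.25 against 0.15. Complex II had 3 of 8 genes higher and 1 lower, complex III 0 of 9 in either direction, complex IV 2 of 10 higher and ATP synthase 0 of 17, against 17.2% higher and 19.1% lower among all genes tested. Leaving out vehicle replicate 3 gave 5 higher and 2 lower in complex II, and 2, 3 and 7 higher with 0 lower in complex III, complex IV and ATP synthase, against 28.6% and 28.4%. The extremes were in complex II: SDHAF2, which attaches the flavin to SDHA, rose by 0.92 ± 0.19 (SE, n = 4 per group, edgeR adjusted p = 0.00708), and SDHAF4, another factor of its assembly, fell by 1.73 on the log2 scale (SE 0.31, adjusted p = 0.0033). These were 0.77 and −1.33 without vehicle replicate 3. UQCR10 (0.61) and UQCR11 (0.12) bounded complex III, COX7C (0.58) and COX8A (−0.02) complex IV, and ATP5MG (0.78) and ATP5F1D (−0.62) ATP synthase, and none of these passed in all 8 libraries. ATP5F1D had 72.8 CPM in vehicle replicate 3 and 18.5 to 20.6 CPM in the other vehicle libraries, and without that library it stood at 0.14.

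Of 12 other complex I assembly factors outside the NDUFAF names, TMEM70 and DMAC2 rose and none fell, a share near the 17.2% of all genes tested. In the fit without vehicle replicate 3, 4 of the 12 rose, the others being TMEM126A (0.25) and TMEM186 (0.38), against 28.6%. DMAC2, TMEM126A and TMEM186 were named after their values were seen. TMEM70, an inner membrane protein of the assembly of complex I and ATP synthase, had 18.4, 21.5, 10.8 and 23.0 CPM in the vehicle libraries and 37.6, 42.4, 47.4 and 40.2 CPM in the TP-472 libraries. It rose by 1.19 ± 0.22 (SE, n = 4 per group, edgeR adjusted p = 0.00404), and by 1.00 without vehicle replicate 3. ECSIT, a factor of the membrane arm, was the lowest of this list at −0.10 (adjusted p = 0.68). Of the 7 subunits encoded in mitochondrial DNA, 4 fell and 0 rose, against 19.1% lower and 17.2% higher among all genes tested. The median of these 7 was −0.82, with values from MT-ND5 at −1.30 (edgeR adjusted p = 0.0116) to MT-ND3 at 0.53 (adjusted p = 0.424). Their median was −0.70 without vehicle replicate 3, with 5 lower, against 28.4% of all genes tested.

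**Figure D5:**
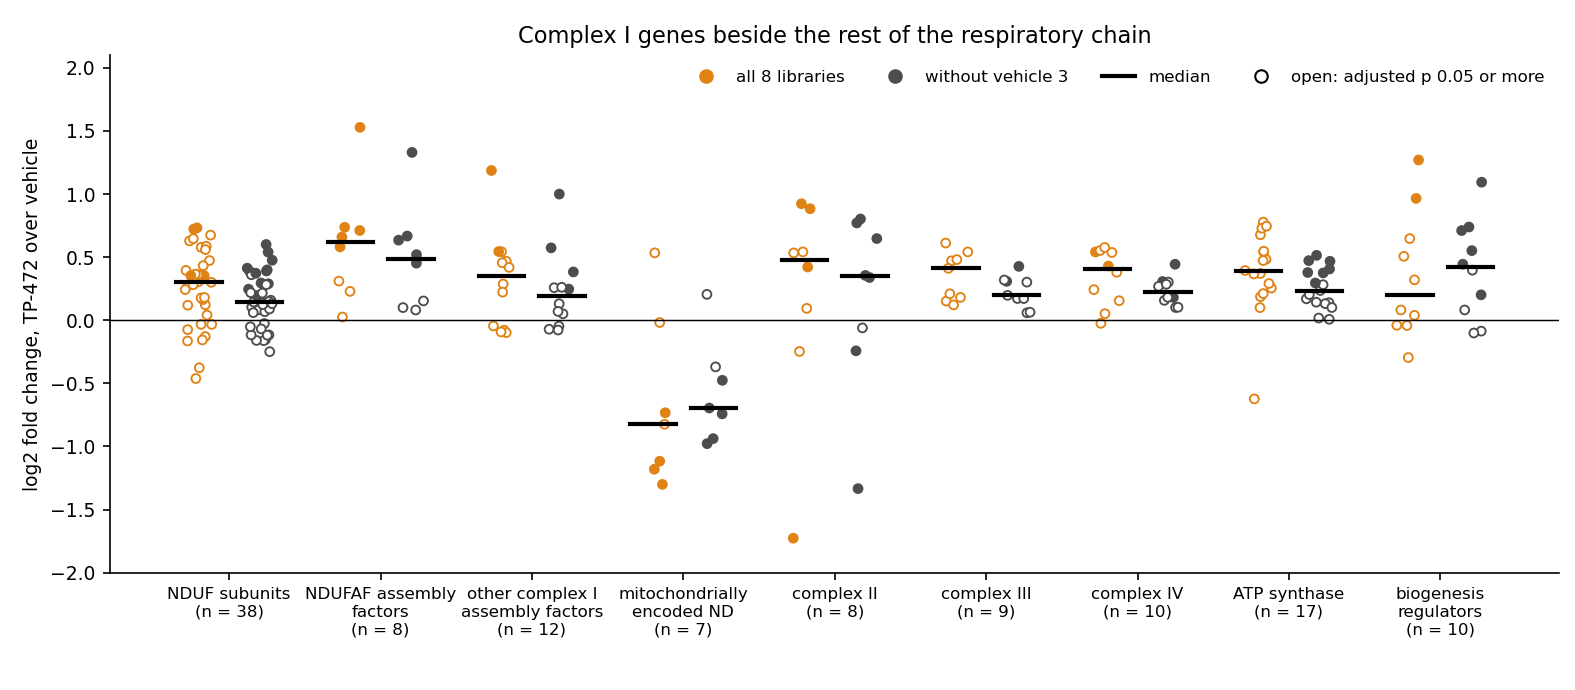
Log2 fold change (y axis) of each tested gene of the NDUF lists and the other respiratory chain lists, for all 8 libraries (orange) and without vehicle replicate 3 (grey), filled where the adjusted p was under 0.05. Black lines are medians, which lie at 0.30 for the NDUF subunits, 0.62 for the assembly factors and −0.82 for the mitochondrially encoded ND genes in all 8 libraries.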

How the data were processed

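The authors made strand-specific RNA-seq libraries, estimated transcript abundance with Salmon 1.4.0 and summarized it by gene through tximport, with GENCODE release 34. The deposited values are estimated counts per gene, neither normalized nor filtered. Here they were rounded to whole numbers, scaled by TMM and tested with the quasi-likelihood test of edgeR 4.0.16 (R 4.3.3) over genes above 1 CPM in at least 4 of the 8 libraries, with Benjamini-Hochberg adjustment. The limits of 0.05 and 1.5-fold are those of the study, whose text names no test for these data. Depth leaves little counting error at these levels, so the spread between replicates limits precision. The members, gene lists and tests were chosen with earlier results of these data known. Values in full are given for the core catalytic subunits, the NDUFAF factors, NDUFA4 and the highest and lowest gene of each module and list. One core subunit is counted in the totals and is not reported here. GENCODE release 29 (GRCh38) gave positions, lengths and GC content (medians over annotated transcripts), matched on the gene identifier. Replicate numbers were not treated as pairs. No pair of libraries within a group agreed within sampling noise (lowest mean chi-square 12.8). Alternatives used DESeq2 1.42.0, limma-voom 3.58.1 with quality weights, other scalings and filters, a GC correction, a replicate block, protein-coding genes alone and each library left out. Those that combine leaving out vehicle replicate 3 with another change were chosen after seeing the data. The edgeR fit and the GC correction were tested on simulated data. These held no outlying library, so they cannot judge the methods for a library like vehicle replicate 3.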

Additional observations from a re-analysis of the deposited data

Results flagged for a closer look

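In 4 of the 48 groups of 4 libraries examined, 1 library lay far outside the other 3 (Dixon's 95% critical value), and chance gives about 1 such group in 20. The gap to the nearest library was 0.918 of the whole range for NDUFS7 and 0.926 for NDUFS8, where vehicle replicate 3 was the highest vehicle library. It was 0.848 for NDUFAF7, where vehicle replicate 3 was the lowest, and 0.856 for NDUFV1, where vehicle replicate 1 was the lowest. None of these 4 genes passed the test in all 8 libraries.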

How the results depend on the processing

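The medians of both NDUF lists moved by less than the spread between replicates under all alternatives. This spread includes vehicle replicate 3, which widens it, so it cannot judge the fits without that library. Leaving out 1 library gave 0.15 to 0.39 for the subunits and 0.49 to 0.70 for the assembly factors, with the lowest values, 0.15 and 0.49, without vehicle replicate 3. Counts moved more. With 4 subunits higher in all 8 libraries, DESeq2 gave 9, limma-voom with quality weights 15 (and 5 lower), no filter on low counts 2, and leaving out 1 library 1 to 12, the 12 without vehicle replicate 3 and 1 without vehicle replicate 1 or TP-472 replicate 1, 2 or 3. Of the fits without vehicle replicate 3, subunits higher were 12 with RLE scaling, 12 with upper-quartile scaling (2 lower), 14 with total counts (2 lower), 10 with the GC correction (1 lower) and 13 with DESeq2 (2 lower). With 5 assembly factors higher, leaving out 1 library gave 3 to 5, with 3 without TP-472 replicate 2 or 3. For the other respiratory chain lists (9 higher, 5 lower) the higher counts were 15 with total counts, 15 with DESeq2, 35 with limma-voom (8 lower), 20 with the GC correction and 4 to 27 with 1 library left out (3 to 7 lower), with 27 without vehicle replicate 3, 16 without vehicle replicate 2 and 4 without vehicle replicate 1 or TP-472 replicate 1, 2 or 3. In fits without vehicle replicate 3 they were 26 with RLE, 25 with upper-quartile scaling, 34 with total counts, 25 with the GC correction and 30 with DESeq2. Over all genes (2418 higher, 2684 lower), limma-voom gave 4797 and 4809, and leaving out 1 library 1541 to 4024 and 1581 to 4000. Without vehicle replicate 3, RLE gave 4001 and 4030, upper-quartile scaling 3850 and 4195, total counts 3898 higher, the GC correction 3990 and 4123 and DESeq2 4071 and 4112. The cause was not tested for these changes.

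Same-numbered libraries did not deviate together (correlations of −0.06, 0.12, −0.17 and −0.18), so the numbers were not taken as pairs. With a replicate block, 1 subunit was higher, and 1699 genes were lower over all genes. With the block and without replicate 3 of both groups, 10 subunits and 25 genes of the other lists were higher.

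Among the named genes, directions turned only in genes that did not pass in all 8 libraries. With the GC correction, alone and with the block, NDUFS7 was 0.085 and 0.091, NDUFS8 0.016 and 0.020, NDUFV1 0.11 and 0.15, NDUFA13 0.23 and 0.32, NDUFB11 0.078 and 0.10, ECSIT 0.26 and 0.27, COX8A 0.22 and 0.23, ATP5F1D 0.16 and 0.17 and POLRMT 0.31 and 0.32. NDUFS7 was 0.012 with the GC correction and without vehicle replicate 3. NDUFAF3 was −0.0082 with total counts. With limma-voom, ECSIT was 0.099, MT-ND3 −0.046, COX8A 0.093, ATP5F1D 0.20 and POLRMT 0.15. Leaving out 1 library gave −0.16 to 0.039 for NDUFS1, −0.015 to 0.10 for NDUFAF3, −0.13 to 0.072 for NDUFA13, −0.18 to 0.051 for ECSIT, −0.10 to 0.10 for COX8A, −0.82 to 0.14 for ATP5F1D and −0.45 to 0.20 for POLRMT. For the fits without vehicle replicate 3 that used RLE, upper-quartile scaling, total counts, the GC correction or DESeq2, and for the block without replicate 3 of both groups, ECSIT was 0.049, 0.034, 0.042, 0.16, 0.049 and 0.023, COX8A 0.10, 0.086, 0.096, 0.17, 0.10 and 0.065, ATP5F1D 0.14, 0.12, 0.13, 0.26, 0.14 and 0.089, and POLRMT 0.20, 0.18, 0.20, 0.33, 0.20 and 0.21.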

Other observations

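Among 10 tested regulators of mitochondrial biogenesis, TFB2M and TFAM rose and none fell, against 17.2% and 19.1% of all genes tested. Leaving out vehicle replicate 3 gave 6 higher and 0 lower, against 28.6% and 28.4%, the GC correction 6 higher, against 25.3%, and both together 7 higher, against 28.4%. TFB2M, a transcription factor of mitochondrial DNA, had 15.6, 16.1, 8.89 and 17.6 CPM in the vehicle libraries and 33.8, 37.8, 34.5 and 34.3 CPM in the TP-472 libraries, without overlap. It rose by 1.27 ± 0.20 (SE, n = 4 per group, edgeR quasi-likelihood adjusted p = 0.00189) and by 1.09 without vehicle replicate 3. TFAM, which packages mitochondrial DNA and opens its promoters, had 78.6, 108, 33.96 and 103 CPM in the vehicle libraries and 153, 157, 166 and 155 CPM in the TP-472 libraries, and rose by 0.97 (adjusted p = 0.0348), or by 0.71 without that library. TFAM was named after its values were seen. POLRMT, the mitochondrial RNA polymerase, was the lowest of the list, at −0.30 (adjusted p = 0.486). It had 83.1 CPM in vehicle replicate 3 and 29.6 to 34.5 CPM in the other vehicle libraries, and stood at 0.20 without it.

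Of the 46 NDUF genes, 23 had a protein-coding neighbor on the opposite strand whose start lay within 1000 bases of their own (GENCODE release 29). Of 19 such pairs with a tested neighbor, the neighbor was higher in 8 and lower in 1, against 17.2% and 19.1% of all genes tested. NDUFS6 and MRPL36, a gene of the mitochondrial ribosome, start 34 bases apart, and MRPL36 rose by 1.11 (edgeR adjusted p = 0.00867). NDUFAF5 and ESF1 start 64 bases apart, and ESF1 rose by 0.63 (adjusted p = 0.00721). The other neighbors that rose were WDR4, RNF113A, FAM126B, MRPL47, TATDN1 and CEBPZ. They lie beside NDUFV3, NDUFA1, NDUFB3, NDUFB5, NDUFB9 and NDUFAF7, none of which passed in all 8 libraries, against the same shares. Without vehicle replicate 3, NDUFV3 and NDUFB9 passed as higher (edgeR adjusted p = 0.00736 and 0.0069) and the others did not, against 28.6% of all genes tested. NDUFAF8 and TEPSIN start 148 bases apart, and TEPSIN stood at −0.57 (adjusted p = 0.175), or −0.10 without vehicle replicate 3. These pairs were named after their values were seen.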
